A study of Homo sapiens with 2 samples.

Results

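UBASH3A, UBASH3B, SLA and SLA2 encode proteins that dampen signals from antigen receptors, and their chromatin was examined in LOUCY, an established human cell line of T-cell acute lymphoblastic leukaemia (T-ALL). The labels name no treatment of the cells. The measurement was ChIP-seq of H3K27ac, the acetylated form of lysine 27 on histone H3 that is found at active enhancers and promoters. The data are 1 H3K27ac library, from which 54357332 tags were kept, and 1 input library of unprecipitated chromatin, from which 71932640 tags were kept. The authors called 52203 peaks from this pair, and there were no replicates, so every value describes these libraries and no test across samples was possible.

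The members were 37 of the 52203 peaks, taken where they touched 1 of the 4 gene bodies or the 30 kb on either side. The genes had been chosen by their H3K27ac peaks in these same data, so the number, width and height of their peaks are a description and were not tested. In hg19, the gene bodies lie at 122.526 to 122.685 Mb of chromosome 11 for UBASH3B, 43.824 to 43.868 Mb of chromosome 21 for UBASH3A, 134.049 to 134.115 Mb of chromosome 8 for SLA, and 35.241 to 35.275 Mb of chromosome 20 for SLA2. These bounds are known to the nearest 1 kb, which limits the distances measured from them. UBASH3B had 13 peaks, UBASH3A 6, SLA 13 and SLA2 5. No gene annotation of hg19 was used here, so the line was not checked against other T-cell marker genes, and other genes of the pathway were not analysed here.

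An antigen receptor that meets its ligand is phosphorylated by kinases of the SRC and SYK families, and the signal is later switched off by phosphatases and by removal of the receptor from the cell surface. UBASH3A (also named STS-2 or TULA) and UBASH3B (STS-1 or TULA-2) share a ubiquitin-binding domain, an SH3 domain that binds the ubiquitin ligase CBL, and a phosphatase-like domain. UBASH3B is the more active phosphatase of the pair and acts on the kinases SYK and ZAP70, whereas UBASH3A has weak activity and is found mainly in lymphoid cells. SLA (SLAP) and SLA2 (SLAP-2) are adaptors with the SH3 and SH2 domains of a SRC kinase but no kinase domain. They bring CBL to the receptor, which promotes its ubiquitination and degradation, and SLA is known for keeping receptor levels low on immature thymocytes.

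The start of UBASH3B is shown because it was the 1 gene of the 4 with an entry in the RefSeq promoter table used here, and because its 5′ edge lay inside a peak. UBASH3A, SLA and SLA2 had no entry. The 250 bases before the RefSeq start of UBASH3B, on the plus strand of GRCh38.p14 (chr11:122655472-122655721, a different build from the peaks), read as follows, with matches to the letters searched in capitals.

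UBASH3B promoter: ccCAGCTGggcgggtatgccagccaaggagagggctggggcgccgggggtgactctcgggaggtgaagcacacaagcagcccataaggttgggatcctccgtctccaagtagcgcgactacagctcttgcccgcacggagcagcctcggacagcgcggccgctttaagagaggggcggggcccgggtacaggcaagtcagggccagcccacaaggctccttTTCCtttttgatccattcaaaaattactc

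This stretch had a GC content of 62.4% and 15 CG dinucleotides, against medians of 58.0% and 11 over the 35116 promoters of the table. Both strands were searched for 5 strings. The E-box CAGCTG, bound by E proteins, occurred 1 time, starting 248 bases before the start site, and 14.0% of all promoters held it. The ETS core GGAA occurred 1 time, on the minus strand (printed as TTCC) 29 bases before the start site, and 92.7% of all promoters held it. The RUNX string TGTGGT, the GATA-factor string GATAAG and the AP-1 string TGACTCA, present in 11.0%, 5.65% and 4.203% of promoters, were not among these letters. No string overlapped another. A match describes the letters and is not a bound site.

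The 37 peaks were a mixture of very wide, strong peaks and small, weak ones. Fold enrichment, the authors' ratio of H3K27ac to the local input level with 1 value per peak, ran from 2.11 to 13.5 with a median of 2.97, against 3.08 over all peaks. The median width was 3370 bp, against 1670 bp. Peaks with a fold of 6 or more numbered 12 of 37 (32.4%), against 23.2% of all peaks. Peaks of 10000 bp or more numbered 10 of 37 (27.03%), against 4.37%, and 8 peaks passed both limits, against 3.49%. Since the genes were chosen with these peaks known, nothing is read from these shares. At the other end, 19 peaks had a fold below 3 (51.4%, against 48.2% of all peaks), and 10 of these lay at SLA.

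**Figure D1:**
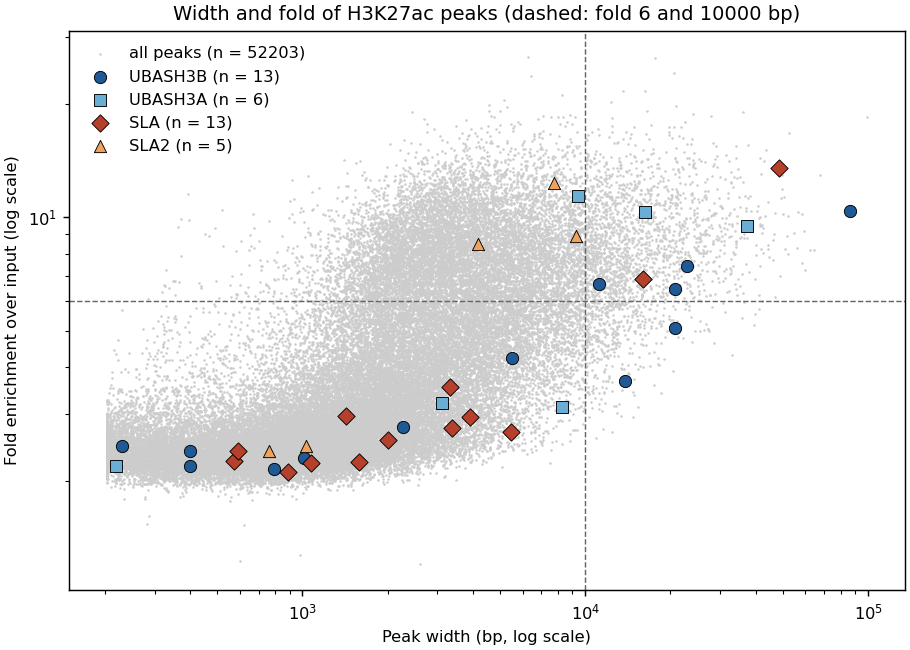
Width (bp, log scale) against fold enrichment over input (log scale) for all 52203 peaks (grey) and the 37 peaks of the 4 genes (coloured symbols), with dashed lines at a fold of 6 and a width of 10000 bp. The widest peak of UBASH3B and the strongest of SLA stand at the right edge, and the SLA2 peaks are all under 10000 bp wide.

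UBASH3B carried the most acetylated sequence: 171.511 kb of its 219 kb window lay in peaks, and 86.1% of the gene body. A single peak inside the gene, at chr11:122550675-122636642, began 24.7 kb after the 5′ edge and ended 110.6 kb after it. It was 85968 bp wide, the second-widest of all 52203 peaks, covered 54.1% of the gene and had a fold of 10.4 (rank 2290). Only 1 other peak of the list was as wide, and that one was also the stronger. The 5′ edge itself lay in another peak, at chr11:122524677-122547579, which was 22903 bp wide and reached from 1.3 kb before the edge to 21.6 kb after it. Its fold was 7.44, lower than that of the peak behind it. The gap between both peaks held only a peak of 230 bp with a fold of 2.48.

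The 3′ part of UBASH3B was acetylated more weakly. A peak of 13805 bp from 115.8 to 129.6 kb had a fold of 3.67, and 3 peaks of 400, 400 and 2276 bp from 133.6 to 142.2 kb had folds of 2.19, 2.40 and 2.79. At the 3′ edge a peak of 20746 bp (chr11:122672802-122693547) had a fold of 5.09. Upstream, a peak of 11161 bp (chr11:122499962-122511122), 14.9 kb or more before the 5′ edge, had a fold of 6.64, and 2 narrow peaks between it and the gene had folds of 2.30 and 2.16. Downstream, 2 peaks of 5501 and 20792 bp had folds of 4.24 and 6.46. They lay on the side of CRTAM, an immunoglobulin-family receptor gene of activated T and NK cells, which is the next protein-coding gene in the RefSeq order. The second of them, chr11:122708687-122729478, crossed the end of the window, and which gene it belongs to was not tested.

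UBASH3A, the lymphoid member of the pair, had 3 strong peaks of similar height in place of a single leading one. The peak over its 5′ edge (chr21:43817009-43833277) was 16269 bp wide with a fold of 10.3, and reached from 7.0 kb before the edge to 9.3 kb after it. The highest peak of the gene was inside it, at chr21:43840182-43849627, from 16.2 to 25.6 kb, with a fold of 11.4 (rank 1316) over 9446 bp. Among the 1798 peaks within 1.2 times that width, the median fold was 7.15 and 8.79% were as strong. The widest peak (chr21:43863095-43900494) covered the 3′ edge. It was 37400 bp wide, rank 65 by width, with a fold of 9.46, but 13.1% of it lay in the gene and the rest ran on towards RSPH1, a gene of motile cilia. Between this peak and the strongest one, 13.467 kb of the gene held no peak.

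The other 3 peaks of UBASH3A were weak. One inside the gene, 3124 bp wide between the first and second strong peaks, had a fold of 3.23. Upstream, on the side of the serine protease gene TMPRSS3, a peak of 8308 bp had a fold of 3.14 and a peak of 220 bp, the narrowest of the 37, had a fold of 2.18. Acetylated sequence thus made up 60.8% of the gene body, 51.7% of the upstream flank and 100% of the downstream flank.

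SLA had the strongest peak of the 4 genes. The peak at chr8:134064257-134112742, from 2.3 to 50.7 kb after the 5′ edge, was 48486 bp wide with a fold of 13.5, and covered 73.5% of the gene. It ranked 24 by width and 417 by fold, and 3 of the 52203 peaks, itself included, were at least as wide and at least as strong. Among the 45 peaks within 1.2 times its width, the median fold was 9.48 (interquartile range 8.22 to 10.7) and 11.1% were as strong. The 5′ edge itself lay outside that peak, in a narrow one of 1426 bp (chr8:134114664-134116089) with a fold of 2.97. RefSeq lists 5 curated transcripts for SLA. Their hg19 start sites were not used here, so the strong peak was not placed against each of them.

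The remaining SLA peaks were low apart from 1 downstream of the gene. That peak (chr8:134025949-134041950) was 16002 bp wide with a fold of 6.88 and lay beyond the 3′ edge, after a stretch of 10.736 kb that held no peak, with a peak of 886 bp and a fold of 2.11 beside it. In the 3′ part of the gene, 3 peaks of 575 to 2012 bp had folds of 2.23 to 2.56. Upstream, 6 further peaks of 592 to 5443 bp had folds of 2.24 to 3.55. SLA lies within the thyroglobulin gene TG, a larger gene of thyroid cells that is transcribed from the other strand. The microRNA gene MIR7848 and the non-coding gene PTCSC1 also overlap SLA. To which of these overlapping genes a peak in the body of SLA belongs cannot be told apart here.

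SLA2 had the smallest acetylated region, with its strongest peak at the 5′ edge. The peak at chr20:35268619-35276381 reached from 1.4 kb before the edge to 6.4 kb after it and spanned 7763 bp at a fold of 12.3 (rank 792). Of the 2280 peaks within 1.2 times its width, 6.05% were as strong, and their median fold was 6.85. A second peak inside the gene (chr20:35254946-35264221), from 10.8 to 20.1 kb, was 9276 bp wide with a fold of 8.90. Behind it lay a peak of 1027 bp with a fold of 2.48. Downstream, a peak of 4182 bp (chr20:35232642-35236823) had a fold of 8.499 and a peak of 763 bp a fold of 2.39. These were on the side of the homeobox repressor gene TGIF2. The protein-coding genes RAB5IF and TGIF2-RAB5IF overlap SLA2 in RefSeq, and to which gene these downstream peaks belong was not tested. The 28.619 kb upstream of the first peak, towards NDRG3, held no peak.

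**Figure D2:**
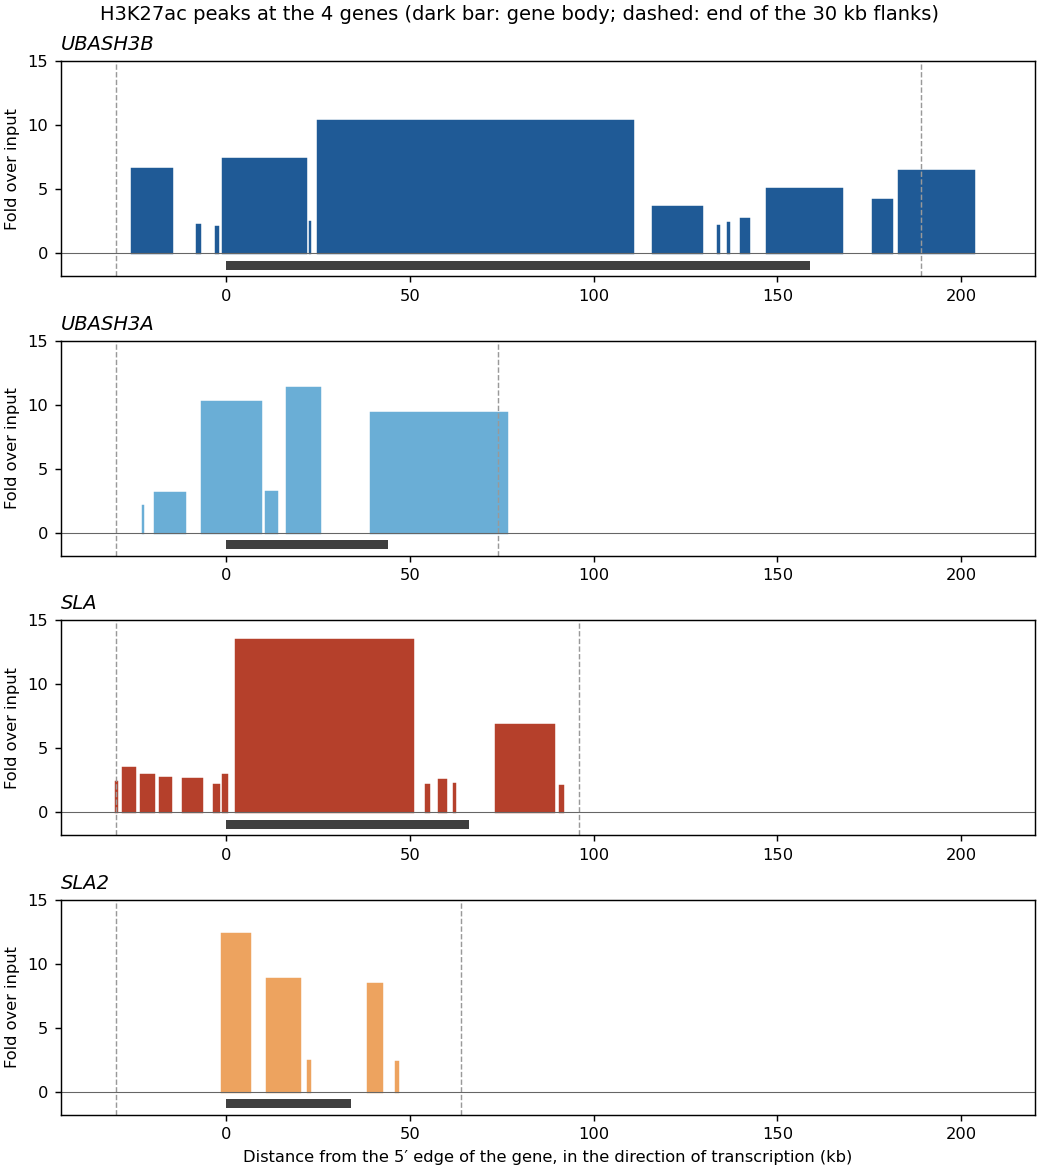
H3K27ac peaks of each gene by distance from its 5′ edge in the direction of transcription (kb); the height of a block is the fold over input of the whole peak, the dark bar is the gene body and dashed lines end the 30 kb flanks. The highest block lies inside the gene at UBASH3B, UBASH3A and SLA, and over the 5′ edge at SLA2.

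The genes differed in where their strongest peak lay. Each of the 4 genes had its 5′ edge inside a peak, but the strongest peak held that edge at 1 gene, SLA2. At SLA the peak over the edge reached only 0.3 kb into the gene. With bounds known to the nearest 1 kb, whether that edge lies in the peak is uncertain. At the 5′ edge the order of folds was SLA2 (12.3), UBASH3A (10.3), UBASH3B (7.44) and SLA (2.97). By the strongest peak of each window the order was SLA (13.5), SLA2 (12.3), UBASH3A (11.4) and UBASH3B (10.4), so SLA moved from last to first. The last place of SLA holds for the edge given by the rule, since the hg19 start sites of its 5 curated transcripts were not used. Neighbours in these orders have no replicate error to be set against. The 3′ edge was inside a peak at UBASH3B and UBASH3A and outside peaks at SLA and SLA2.

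Extent and height did not follow the same order. The share of the window in peaks was 78.3% at UBASH3B, 70.2% at SLA, 69.5% at UBASH3A and 24.5% at SLA2. UBASH3B, the gene with the largest share, had the lowest top fold. The mean of the peak folds, each weighted by the bases of its peak in the window, ran the other way at the ends of the list. It went from 7.98 at UBASH3B through 8.88 at UBASH3A and 9.40 at SLA to 9.49 at SLA2. In both pairs the longer gene carried more acetylated sequence. Within the gene bodies, UBASH3B had 5.12 times that of UBASH3A with a body 3.61 times as long, and SLA had 3.15 times that of SLA2 with a body 1.94 times as long. Over the windows with their flanks, the ratios were 2.37 for windows 2.11 times as long and 3.84 for windows 1.34 times as long. Both pairs thus differed in acetylated sequence by more than in length. The shares of like-width peaks given above are for the strongest peaks of UBASH3A, SLA and SLA2, and other strong peaks had higher shares. At UBASH3B, 60.7%, 71.4% and 82.9% of like-width peaks were as strong as those of 11161, 22903 and 20792 bp. For the SLA peak of 16002 bp it was 68.7%. At UBASH3A it was 24.7% for 16269 bp and 47.6% for 37400 bp, and at SLA2 26.1% for 9276 bp.

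**Figure D3:**
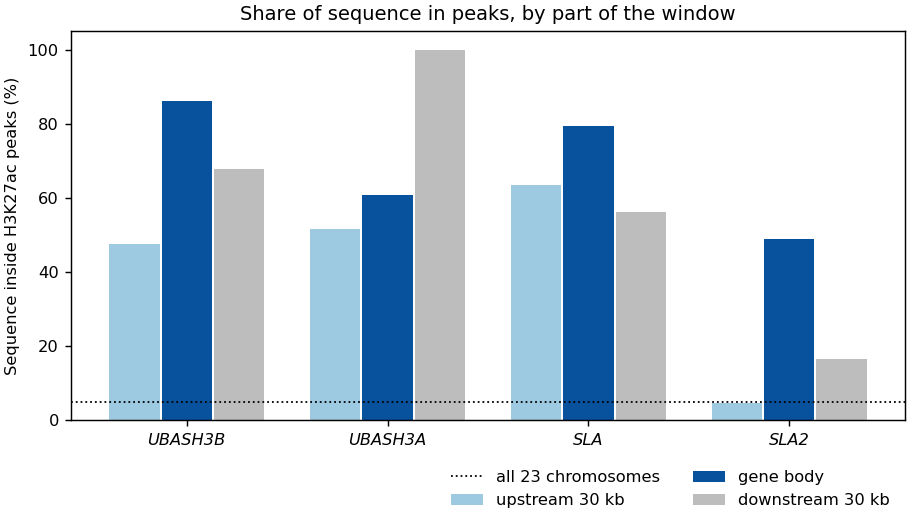
Share of sequence (%) inside H3K27ac peaks in the 30 kb upstream, the gene body and the 30 kb downstream of each gene, with a dotted line at the share over all 23 chromosomes (4.90%). Gene bodies run from 49.1% at SLA2 to 86.1% at UBASH3B, and the upstream flank of SLA2 (4.60%) is the only bar below the dotted line.

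Set beside the chromosomes as a whole, the windows were densely acetylated. Peaks covered 5.70% of chromosome 11, 4.44% of chromosome 21, 3.85% of chromosome 8 and 6.58% of chromosome 20. When all chromosomes were divided into consecutive windows as long as that of UBASH3B, 1 of 13852 had as large a share in peaks. For UBASH3A the number was 35 of 29185 and for SLA 15 of 24087. For SLA2 it was 1617 of 32290, or 5.01%. The consecutive windows were not placed on genes or peaks, and none that overlapped a gene's own window reached its share. The counts can therefore be too low for windows placed on peaks. The windows include unsequenced parts of the chromosomes and, as the genes were chosen on their peaks, these places in the order are a description.

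The surroundings of the genes were unlike each other. UBASH3B had the emptiest surroundings: within 500 kb on either side of its 5′ edge, 78.3% of its window was in peaks but 3.36% of the rest. The shares given for the rest include the outer parts of peaks that crossed a window end, here 14.478 kb. Beside these parts, the rest at UBASH3B held 7 further peaks. The strongest of the 7, at chr11:122929250-122936332, was 7083 bp wide with a fold of 13.7, above any peak of UBASH3B. The peaks nearest to its window were 43.8 kb before it (844 bp, fold 4.04) and 36.1 kb after it (480 bp, fold 2.19). UBASH3A was the opposite case, with 34.3% of the rest of its 1 Mb in peaks and 65 further peaks. The next peaks were 3.23 kb (fold 2.81) and 3.41 kb (13123 bp, fold 6.74) beyond its window. SLA lay between them, with 17.4% of the rest in peaks and 47 further peaks. The next peaks were 0.807 kb beyond its window on the downstream side (6900 bp, fold 5.83) and 1.65 kb beyond it upstream (522 bp, fold 2.20). At SLA2 the rest held 28 peaks and 8.11% of sequence. The next peaks there were 6.72 kb beyond the downstream end (3905 bp, fold 11.5) and 55.8 kb beyond the upstream end (3128 bp, fold 3.56).

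**Figure D4:**
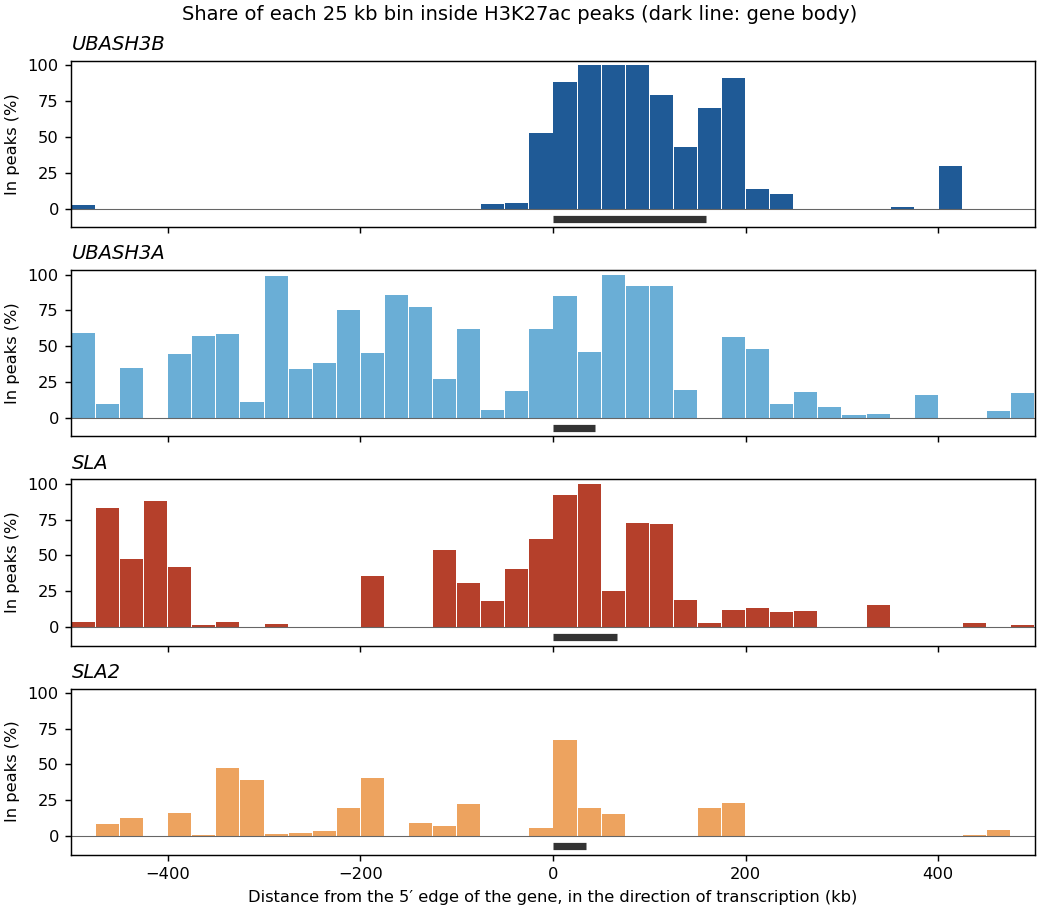
Share (%) of each 25 kb bin inside H3K27ac peaks up to 500 kb either side of the 5′ edge of each gene, in the direction of transcription; the dark line is the gene body. Bins at UBASH3B reach 100% inside the gene and most bins outside its window hold no peak, the fullest being those at 400 to 425 kb (29.8%), 200 to 225 kb (13.9%) and 225 to 250 kb (10.6%), while peaks at UBASH3A go on through the neighbouring sequence.

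When peaks within 12.5 kb of each other were joined and each region was scored by its summed fold times width, the region over each of the 4 genes passed the slope rule that sets large domains apart, against 5.57% of the 25510 regions. As the choice of genes used these peaks, nothing is read from this count. The UBASH3B region ranked 4 in the genome and 1 of 1108 on chromosome 11. It held all 13 peaks of the window, spanned 229.517 kb and consisted of peak sequence for 81.0% of its length. It ended 14.478 kb past the window with the last peak on the side of CRTAM, and which gene that peak belongs to was not tested. The SLA region ranked 12, and 1 of 1063 on chromosome 8, with 32 peaks over 259.52 kb. It ran 45.9 kb past the downstream and 87.6 kb past the upstream end of the SLA window, and 56.4% of its length was in peaks. The UBASH3A region ranked 388 over 64.949 kb and took in 58.2% of the gene, since the 13.467 kb gap parted it from the wide peak at the 3′ edge. The SLA2 region ranked 978 over 24.322 kb, and at a -log10 q of at least 10 it no longer passed the rule (rank 821, with 814 large domains).

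Fold is relative to input, so an approximate input level was estimated for each peak from its fold and p-value. The estimate takes both values to describe the same position of a broad peak, which the sources used here do not state. Over peaks of at least 6-fold, the median level was 8.75 at UBASH3B (4 peaks), 10.3 at UBASH3A (3), 9.39 at SLA (2) and 7.44 at SLA2 (3). Over all 12125 such peaks the median was 7.61, with an interquartile range of 6.42 to 8.88. By these estimates, which rest on 2 to 4 peaks a gene, UBASH3A and SLA were above that range and UBASH3B and SLA2 within it. Over all peaks of a window, weak ones included, the medians were 6.31 at UBASH3B, 7.87 at UBASH3A, 5.40 at SLA and 6.78 at SLA2, against 6.34 over all peaks of the list. SLA was thus high by its strong peaks and low by all of its peaks, where its chromosome had a median of 6.63. The part of the input level in the differences between genes was not tested.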

How the data were processed

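H3K27ac ChIP-seq and input DNA of LOUCY were deposited as 1 peak list in hg19. Bowtie2 is named as the aligner, per the submitters' processing notes, with no version or settings given in the sources used here. Per the file headers, the authors called peaks with MACS2 2.1.0.20140616 in broad mode against input, keeping 1 tag per position, which limits the height of strong peaks. The header gives a q cutoff of 0.05 (1.30 on the -log10 scale). Yet 2810 peaks of the list (5.38%), 4 of the 37 members among them, lay below it. No other cutoff is given in the header. Whether a value is an average over its broad peak is not given. Fold enrichment is the authors' ratio of ChIP to local control. The p-value and q-value were deposited on a -log10 scale. The pileup column held 52203 negative values, which a pileup cannot take, so it was left out.

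Gene bounds came from the rule that defined the members, and strands from textbook knowledge. A peak counted with 1 bp or more in a window. Overlaps, ranks, stitching and the input level (the control level that gives a peak both its fold, after adding 1 to both terms, and its Poisson p) were computed with Python 3.11.15, numpy 2.4.6, pandas 2.3.3 and scipy 1.17.1, and checked on simulated data. Chromosome lengths came from GenomeInfoDb 1.38.1. Genes that neighbour or overlap the members came from RefSeq of GRCh38.p14 by name and order, and all 4 members matched. The genes named were the members and these neighbours, by rule. Members and lists were chosen with earlier results of these data known. A planned count of other receptor signalling genes and a protein comparison needed an hg19 annotation or protein sequences and were not run.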

Additional observations from a re-analysis of the deposited data

How the results depend on the processing

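The top fold of each gene was the same under all 4 alternatives tried for it, which could not have changed it. At least 82.2% of each strongest peak lay in the gene body, and its -log10 q was at least 68.9. The counts of peaks with a fold of 6 or more were 8 with the gene body only and 10 with a flank of 10 kb. Those of 10000 bp or more were 7 and 8. These counts stayed within 1.5 times, and the alternatives for them were chosen after seeing the data. With the gene body only, the peak count was 8 at UBASH3B, 5 at SLA and 3 at SLA2, and the covered share 86.1% at UBASH3B, 60.8% at UBASH3A, 79.5% at SLA and 49.1% at SLA2. With a flank of 10 kb, SLA had 8 peaks, and the shares were 83.0%, 68.4%, 71.6% and 41.2% in the same order of genes. At a -log10 q of at least 10, peaks numbered 6 at UBASH3B, 3 at UBASH3A, 2 at SLA and 3 at SLA2, since weak peaks were removed, and the shares were 69.7%, 58.3%, 51.2% and 22.6%. Counting peaks by their midpoint moved the share to 75.4% at UBASH3B and 69.9% at SLA. With stitching within 5000 bp, the region spanned 118.912 kb at UBASH3B (rank 6), 48.588 kb at UBASH3A (rank 268) and 94.487 kb at SLA (rank 21), and SLA2 ranked 780. With the same stricter q, the spans were 111.966, 32.619, 48.486 and 21.436 kb and the ranks 3, 352, 26 and 821. Ranked by summed peak width, UBASH3A was 431, SLA 15 and SLA2 1642. The long spans of UBASH3B and SLA thus rested on weak peaks between strong ones. No paired analysis was possible because each group holds a single library. The lowest -log10 q of the list was 1.01, so the number of weak peaks depends on the caller's threshold.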
